A study of Mus musculus with 6 samples.

Results

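The 80 genes described here encode the proteins of the cytosolic ribosome. They are the rows of the count table whose symbol is Rpl or Rps followed by a number, with an optional letter a, l, x or y, or is Rplp0, Rplp1, Rplp2 or Rpsa, without pseudogene symbols, S6 kinase genes and Rps19bp genes. The table held 22271 genes, and 48 of the 80 belong to the large (60S) subunit and 32 to the small (40S) subunit. By GENCODE M21, 2 of the 80 (Rps4l and Rpl6l) are annotated as pseudogenes in spite of their names. Rpl24 and Rpl41 were not analysed here. Several ribosomal proteins carry symbols outside this rule (Rps3a1, Fau, Rack1 and variants such as Rpl22l1), and they are kept apart below.

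The libraries were made from total RNA of progenitor cells of C57BL/6JRj mouse bone marrow, separated by their surface CD27, a receptor of the TNF receptor family. One population carries the label CD27 high MODP and the other the label CD27 low MOP, with 3 libraries each. All sample titles carry the tag WT, and no further genotype, treatment, age or pooling is given. The title places a progenitor of macrophages and osteoclasts below one that also gives rise to dendritic cells, and the design sets the transcriptomes of both populations against each other. Cd27 itself was counted at 35.3, 38.9 and 38.6 counts per 1000000 (CPM) in MODP replicates 1, 2 and 3 and at 4.56, 3.52 and 3.64 CPM in MOP replicates 1, 2 and 3, so the groups did not overlap. The libraries held 10701425 to 15892640 counts, and no source says whether they came from separate animals, so a p-value here reflects only how far these libraries scatter, which may be technical. In both groups replicate 2 stood apart, with the highest summed neutrophil markers (17016 CPM (MODP) and 12037 CPM (MOP)) and, in MODP, with 1724 CPM of Col1a1.

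A ribosome carries 1 copy of nearly every ribosomal protein beside the ribosomal RNAs, so cells make these proteins in matched amounts. The acidic stalk proteins, present in several copies, recruit the elongation factors, the proteins around the exit tunnel meet the growing chain, and the small subunit binds the mRNA and decodes it. In vertebrates the mRNAs of these genes begin with a C followed by a run of pyrimidines, the terminal oligopyrimidine (TOP) motif, through which the mTORC1 kinase and the RNA-binding protein Larp1 control their translation and stability. In haematopoiesis the class is known above all from Diamond-Blackfan anaemia, in which loss of 1 copy of a ribosomal protein gene impairs erythroid progenitors. Many of these genes have processed pseudogenes that copy the mRNA closely, which matters for how their reads are counted.

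The motif can be read at the annotated transcription starts. RefSeq promoter windows on GRCm38.p6, from 250 bases before a start to 50 after it, were at hand for 58 of the 80 genes and for 55 of the 75 that could be tested. A C followed by at least 4 further C or T bases lay exactly at an annotated start in 13 of these 55 genes (23.6%), against 3.01% of the 27025 genes with a window. Within 20 bases on either side, on the strand of the gene, 47 of the 55 (85.5%) held such a run, against 53.3% of all genes. The following windows show the last 15 bases before and the first 15 from the annotated start, with the pyrimidine run in capitals. All are from genes with a run exactly at the annotated start, which 42 of the 55 lack, so they are not typical of the members. They are shown because the members moved together. They cover members that fell in MOP, members that did not pass the test, and 2 proteins outside the symbol rule.
Rps6: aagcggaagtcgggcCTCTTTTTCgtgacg
Rpl15: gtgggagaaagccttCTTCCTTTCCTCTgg
Rpl14: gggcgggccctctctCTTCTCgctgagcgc
Rps10: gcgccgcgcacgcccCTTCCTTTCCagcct
Rpl35: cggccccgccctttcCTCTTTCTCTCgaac
Rplp2: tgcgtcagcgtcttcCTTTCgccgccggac
Rps27: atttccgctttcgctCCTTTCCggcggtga
Rps18: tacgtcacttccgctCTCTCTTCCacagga
Rack1: cggaggccgctctttCTTTTTCTCCacagg
Fau: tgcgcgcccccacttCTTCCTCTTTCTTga

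The windows lie at chr4:86857353-86857382 on the minus strand for Rps6, chr14:18270972-18271001 (minus) for Rpl15, chr9:120571502-120571531 (plus) for Rpl14, chr17:27635230-27635259 (minus) for Rps10, chr2:39005117-39005146 (minus) for Rpl35 and chr7:141447636-141447665 (plus) for Rplp2. Those of Rps27 and Rps18, neither of which passed the test without the replicate block, are chr3:90213634-90213663 and chr17:33955651-33955680 (both minus). Rack1, a scaffold on the 40S head, and Fau, which encodes the small-subunit protein uS30 fused to a ubiquitin-like part, have theirs at chr11:48800345-48800374 and chr19:6057932-6057961 (both plus). Each run starts with its C at the annotated first base and goes on for 5 (Rplp2) to 13 bases (Rpl15 and Fau). Another pair of short motifs known from ribosomal protein promoters was looked up on both strands of the 300-base windows. CCGGAAGT, the core of an ETS factor site, was present in 11 of the 55 tested genes with a window (20%) against 4.31% of all genes. AAGATGGC, which contains the start-site element read by the factor YY1, was present in 5 of 55 (9.09%) against 3.19% of all genes. Neither of these motifs is part of the other, and a missing match says only that these letters are not in the window.

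Ribosomal protein transcripts took a smaller share of the counted RNA in MOP than in MODP. The 80 genes held 2.68%, 2.6% and 2.64% of all counts in MODP replicates 1, 2 and 3, a mean of 2.64% ± 0.0382 (SD, n = 3). In MOP they held 2.18%, 2.2% and 2.27%, a mean of 2.22% ± 0.0465 (SD, n = 3). All MODP libraries lay above all MOP libraries, and the distance between the groups was several times the spread within either. Large-subunit genes held a mean share of 1.4% ± 0.0275 (MODP) and 1.19% ± 0.0185 (MOP), and small-subunit genes 1.24% ± 0.0114 and 1.03% ± 0.0282, again with no overlap (SD, n = 3 each). The ratio of large-subunit to small-subunit counts was 1.13, 1.11 and 1.13 in MODP and 1.16, 1.16 and 1.14 in MOP. The lowest MOP ratio, 1.138, was just above the highest MODP ratio, 1.134. Shares of counts carry no p here, since the members were chosen with earlier results of these data known.

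**Figure D1:**
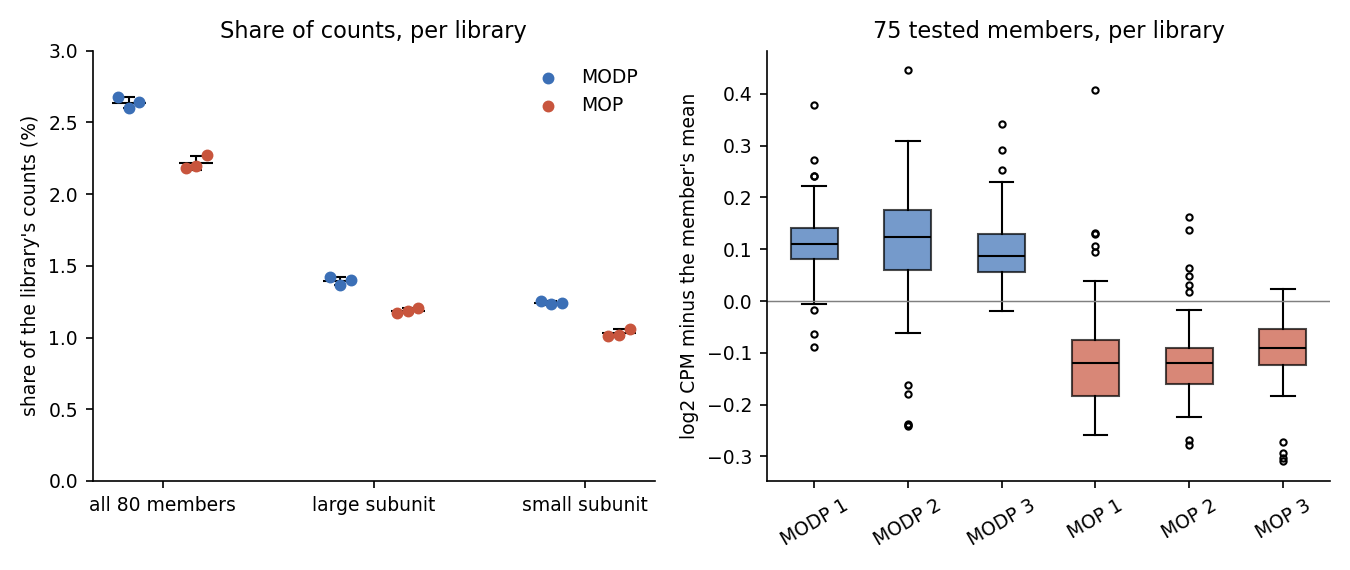
Left, share of each library's counts (y axis, percent) in all 80 ribosomal protein genes and in either subunit; points are libraries, bars the mean and SD of 3. Right, log2 CPM of the 75 tested members minus each member's mean over the 6 libraries; boxes span the quartiles of the members, lines are medians, whiskers reach 1.5 times the box height and circles lie beyond. The 3 MODP medians lie between 0.087 and 0.123 and the 3 MOP medians between -0.119 and -0.09.

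The plot of shares and deviations by library shows a lower share and a lower median deviation in each MOP library than in any MODP library, while single members overlap. In same-numbered pairs the median log2 fold change over the 75 tested members, MOP over MODP, was -0.229, -0.25 and -0.176, and 69, 67 and 75 of the 75 were negative. Over all libraries together 6576 of 12850 tested genes were negative, and this was not counted by pair. The pairs hold the same libraries as the shares above and are no separate evidence. A share of counts is relative: it cannot separate less ribosomal protein mRNA per cell from more of other RNA, and in bulk samples fewer cells of a type and less RNA per cell cannot be told apart.

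Gene by gene, the drop was small and spread over most members. Of the 80 genes, 75 passed the filter on low counts. In the quasi-likelihood fit of edgeR, with p adjusted by Benjamini-Hochberg over all 12850 tested genes, 51 of these 75 (68%) were lower in MOP at an adjusted p under 0.05, where 14.9% of all tested genes were lower. None of the 75 was higher, where 16.3% of all tested genes were. At an unadjusted p under 0.05 edgeR had 57 lower and 0 higher. Of all 12850 tested genes, 5451 passed that threshold in either direction. DESeq2's Wald test called 41 members lower and 0 higher, where 12.6% of all tested genes were lower. For 61 of the 75 (81.3%) all MOP libraries lay below all MODP libraries, against 23.8% of tested genes, and this held for each of the 51 that fell. No member had all MOP libraries above all MODP libraries. The median log2 fold change, MOP over MODP, was -0.22 over the members, a level 14.2% lower, and -0.01 over all tested genes. Those that fell were 9.57% to 22.5% lower.

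The count of calls fell when a single library was left out, while the median hardly moved. The count was 23 without MODP replicate 1, 15 without MOP replicate 1, 18 without MOP replicate 2 and 31 without MOP replicate 3. Over all tested genes the share called lower fell as well, from 14.9% to 9.62%, 7.89%, 10.3% and 10.2% in the same order. The members' median stayed between -0.234 and -0.212 when any library was left out. Blocking on the replicate number gave 56 lower members, where 19.8% of all tested genes were. Without replicate 2 of both groups, which stood apart in neutrophil markers, 36 members were lower, as were 15.6% of all tested genes, and the members' median was -0.211.

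**Figure D2:**
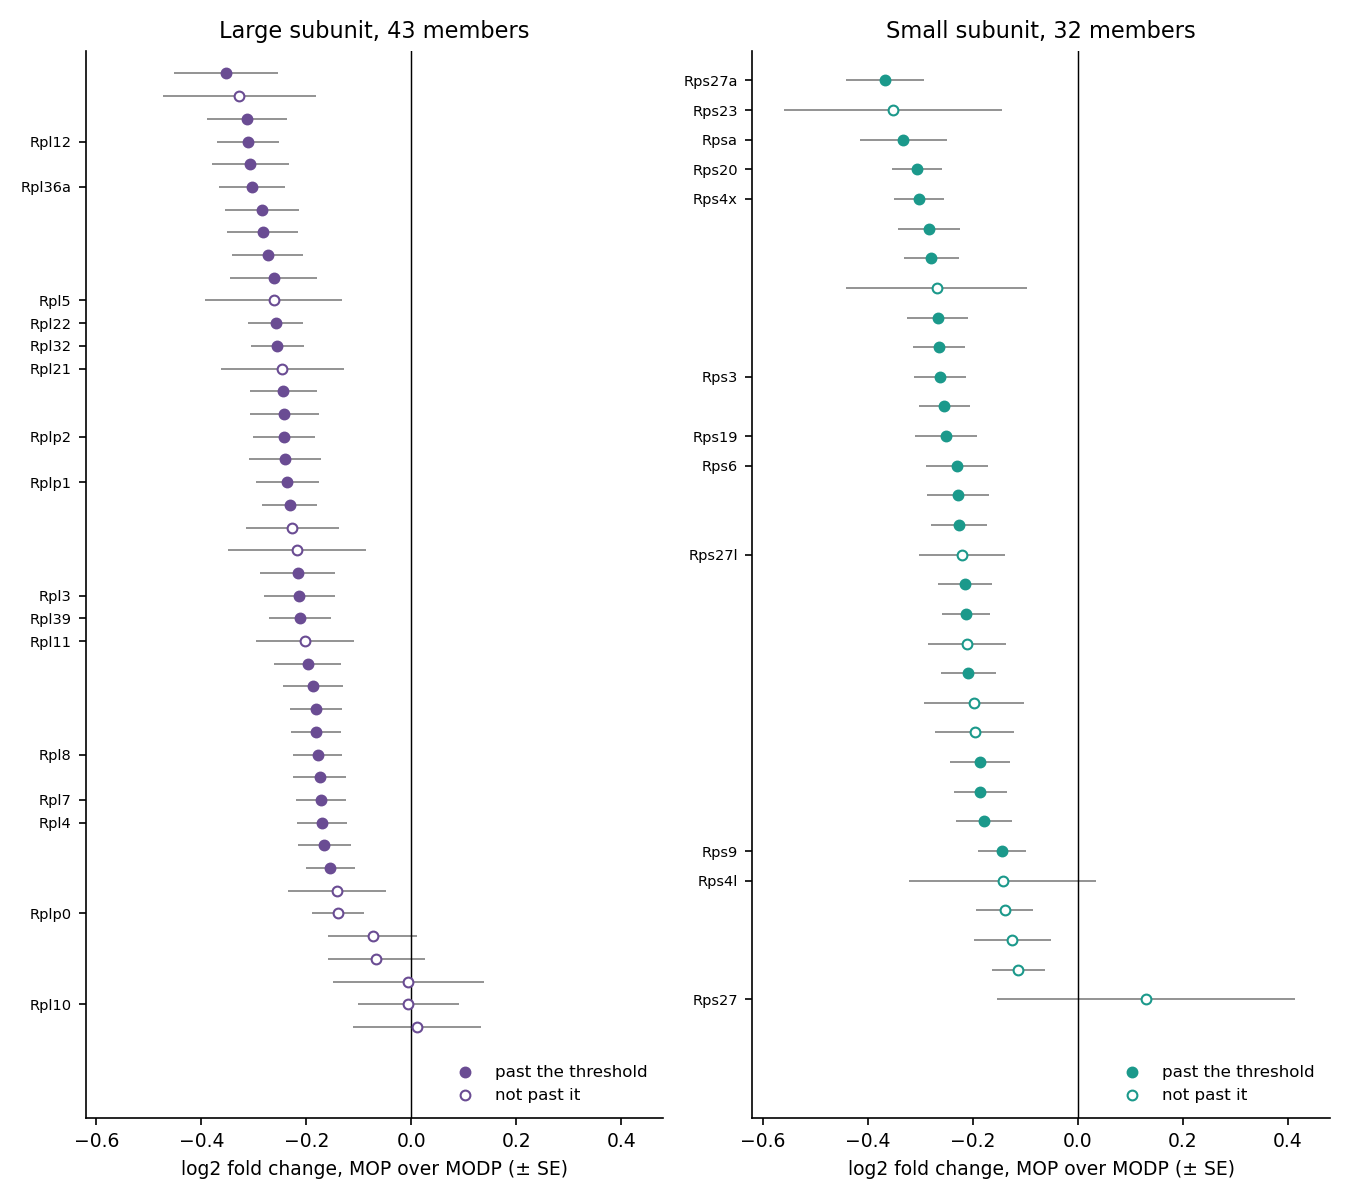
Log2 fold change of each tested member, MOP over MODP (x axis; bars are SE from edgeR's fit), sorted within the large and the small subunit, with labels for the genes named by rule. Filled points passed the adjusted p of 0.05; 73 of 75 points lie left of 0, and all filled ones do.

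Both subunits took part. In the large subunit 30 of 43 tested members were lower, with a median log2 fold change of -0.22, and in the small subunit 21 of 32, also with a median of -0.22. By position in the 40S subunit, 11 of 14 proteins of the head and beak and 10 of 16 of the body and platform were lower. Of the exit tunnel rim, where chaperones and targeting factors dock, 5 of 7 tested genes were lower (Rpl22, Rpl26, Rpl31, Rpl35 and Rpl39), and Rpl19 and Rpl17 did not pass.

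Rps20, a protein of the 40S head, had the smallest adjusted p of the class. It was counted at 1004, 1005 and 991 CPM (MODP) and 805, 789 and 831 CPM (MOP). Its log2 fold change was -0.31 ± 0.048 (the error of a log2 fold change is its SE throughout), with an adjusted p of 0.0025 by edgeR, and its groups did not overlap. Rps4x, an X-linked gene for a protein of the 40S body, was close behind. Its CPM values were 992, 1005 and 1001 (MODP) and 791, 805 and 836 (MOP), with a log2 fold change of -0.3 ± 0.048 (edgeR adjusted p = 0.0027). These 2 genes remained lower under each of the 16 alternative settings, and Rpl12, Rpl22, Rpl32, Rpl36a, Rps24, Rps27a and Rps3 are among the others that did. Of the 51 calls, 39 were lost under at least 1 setting.

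Rps3, on the head where mRNA enters, was among the most abundant small-subunit transcripts. It was at 1596, 1560 and 1520 CPM (MODP) and 1256, 1323 and 1317 CPM (MOP), a log2 fold change of -0.26 ± 0.049 (edgeR adjusted p = 0.0053). Its groups did not overlap, and little of the transcript recurs elsewhere: 8.9% of its 31-base stretches occur in transcripts of other genes.

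Rps27a, which is translated as a fusion of ubiquitin with the ribosomal protein, had the largest drop of the called members, at a modest level. Its values were 31, 33.8 and 31.7 CPM in MODP and 24.4, 25.2 and 25.2 CPM in MOP, 22.5% lower (log2 fold change -0.37 ± 0.075, edgeR adjusted p = 0.0074). Rpsa, on the 40S platform side and also known as a laminin receptor, was at 43.9, 48.8 and 41.5 CPM against 33.6, 36.5 and 36.4 CPM (-0.33 ± 0.083, edgeR adjusted p = 0.017; 0.069 without MOP replicate 1). Rps6, the substrate that gives the S6 kinases their name, was at 78.9, 77.2 and 82 CPM against 70.4, 66.7 and 65.8 CPM (-0.23 ± 0.059, edgeR adjusted p = 0.019, and up to 0.072 without MODP replicate 1 or 3 or MOP replicate 2 or 3). The groups of all 3 genes were separate, but each shares sequence with copies: 72.8% of 31-base stretches for Rps27a, 46.1% for Rpsa and 84.9% for Rps6.

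Rps19, the first gene linked to Diamond-Blackfan anaemia, was counted at 260, 266 and 258 CPM (MODP) and 208, 214 and 236 CPM (MOP), a log2 fold change of -0.25 ± 0.06 (edgeR adjusted p = 0.014, and up to 0.075 without MOP replicate 1 or 2). MOP replicate 3 was the nearest to MODP, and the groups did not overlap. Of 21 members on a list of genes mutated in this anaemia, 16 were lower and 0 higher by edgeR's test, with a median log2 fold change of -0.21, near that of all members. The 5 that did not pass were Rpl5, Rpl11, Rps7, Rps27 and Rps28.

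In the large subunit, Rpl12 at the base of the stalk had the smallest adjusted p. It was at 63.6, 65.7 and 64.8 CPM (MODP) and 50.2, 52.6 and 53.5 CPM (MOP), a log2 fold change of -0.31 ± 0.059 (edgeR adjusted p = 0.0056). Rpl32 had the highest level per length of all members, 1964 CPM per kb of transcript, and was at 1109, 1129 and 1077 CPM (MODP) and 899, 916 and 962 CPM (MOP), a log2 fold change of -0.25 ± 0.051 (edgeR adjusted p = 0.0071). Rpl22, an RNA-binding protein of the 60S surface, was at 389, 417 and 388 CPM against 338, 332 and 329 CPM (-0.26 ± 0.052, edgeR adjusted p = 0.0072). In each of these the lowest MODP library stood above the highest MOP library. Among called large-subunit members the largest drop was that of Rpl27, at 24.2, 26.1 and 30 CPM against 20.1, 21.3 and 21.6 CPM (-0.35 ± 0.099, edgeR adjusted p = 0.028). Its call was lost with DESeq2 and without MODP replicate 3 or any MOP replicate, with adjusted p-values up to 0.1.

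Among the 7 members averaging 1000 CPM or more, Rpl4, Rps9 and Rpl8 fell by less than the members' median, while Rps3 and Rpl32 fell by more and Rplp0 was not called. Rpl4, which reaches into the exit tunnel and alone made up 11.6% of the member counts in MODP and 11.9% in MOP, was at 3098, 2890 and 3062 CPM against 2697, 2682 and 2669 CPM (log2 fold change -0.17 ± 0.048, edgeR adjusted p = 0.028). Rps9, in the 40S body, averaged 1444 ± 23.3 CPM (MODP) and 1306 ± 19.3 CPM (MOP), a log2 fold change of -0.15 ± 0.046 (edgeR adjusted p = 0.043). Rpl8, close to the peptidyl transferase centre, averaged 1439 ± 26 CPM against 1271 ± 26.5 CPM (-0.18 ± 0.047, edgeR adjusted p = 0.021). All 3 had separate groups. All 3 lost the call without MODP replicate 1 or 3 or any MOP replicate, and Rps9 also without MODP replicate 2, with edgeR adjusted p-values up to 0.13, 0.16 and 0.11.

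Of the stalk, Rplp1 and Rplp2, the acidic proteins that contact the translation factors, were lower, and Rplp0, which anchors them, was not called. Rplp1 was at 609, 625 and 588 CPM (MODP) and 483, 519 and 545 CPM (MOP), a log2 fold change of -0.24 ± 0.06 (edgeR adjusted p = 0.019). Rplp2 was at 342, 379 and 343 CPM against 292, 300 and 308 CPM (-0.24 ± 0.059, edgeR adjusted p = 0.016). Rplp0 was at 1362, 1268 and 1332 CPM against 1197, 1188 and 1213 CPM, separate groups with a log2 fold change of -0.14 ± 0.05 (edgeR adjusted p = 0.064; 0.029 with the replicate block). Leaving out MOP replicate 1 or 2 ended the calls of both Rplp1 and Rplp2, and leaving out MODP replicate 1 also that of Rplp1, with edgeR adjusted p up to 0.089 and 0.075.

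Rpl5 and Rpl11 join the 5S ribosomal RNA in a particle that can also bind Mdm2, the ubiquitin ligase of p53. Neither passed the test, at low levels. Rpl5 was at 13.4, 10.6 and 12.5 CPM (MODP) and 9.7, 10.7 and 10 CPM (MOP), which overlap (log2 fold change -0.26 ± 0.13, edgeR adjusted p = 0.16). Rpl11 was at 25.9, 29.4 and 24.4 CPM against 23.1, 23.8 and 22.2 CPM, separate by a narrow margin (-0.2 ± 0.094, edgeR adjusted p = 0.14). Both estimates are near the members' median, with errors larger than most, and 94.8% of the 31-base stretches of Rpl5 are shared with copies.

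**Figure D3:**
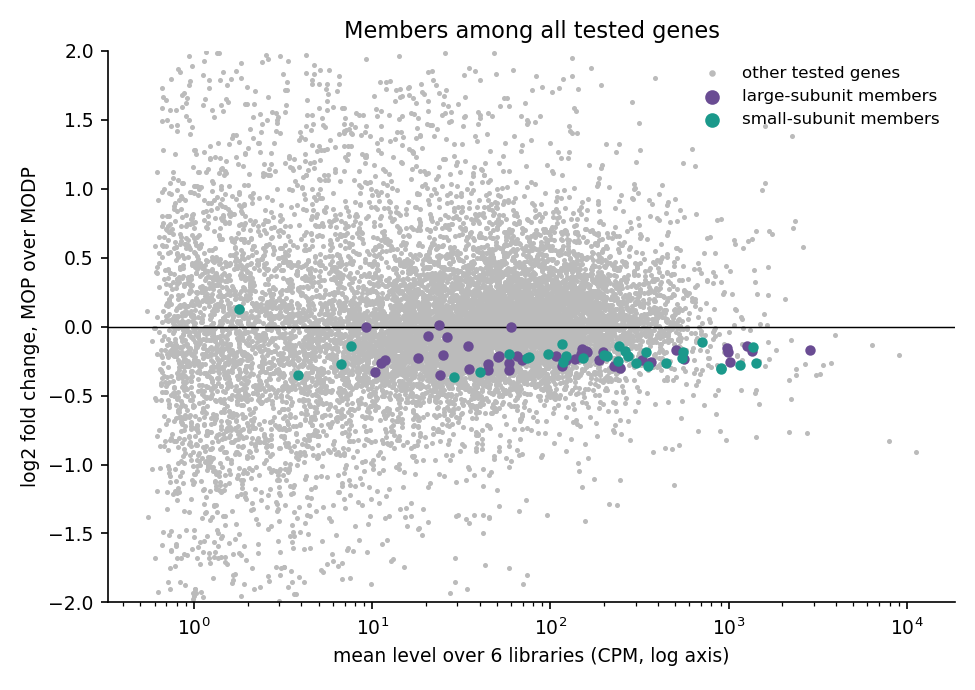
Log2 fold change, MOP over MODP (y axis), against the mean level over the 6 libraries in CPM (x axis, log scale) for all tested genes (grey) and the members (coloured by subunit). The members form a band between -0.367 and 0.13 across a wide range of levels; 236 other genes lie beyond the plotted range of 2 in either direction.

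The 24 tested members that were not called were mostly the scarce ones. Of them, 19 averaged under 100 CPM, and 10 of the 24 still had all MOP libraries below all MODP libraries. At 100 CPM or more, 39 of 44 members were lower, 43 had separate groups, and the drops ran from 7.6% to 19.2%. Of the 2527 other genes at that level, 14.9% were lower and 28% higher, with a median log2 fold change of 0.05. For 21.8% of these 2527 genes all MOP libraries lay below all MODP libraries. Among the 5 abundant members that did not pass were Rplp0, Rps16, Rps7 and Rps2, with edgeR adjusted p-values of 0.064, 0.061, 0.087 and 0.24. With the replicate block Rplp0, Rps16 and Rps7 were called lower (edgeR adjusted p = 0.029, 0.044 and 0.031) and Rps2 was not (0.22). Under 100 CPM, 12 of 31 were lower, and the median log2 fold change was -0.23, close to the -0.21 of the abundant members. The errors differed more: the median SE was 0.092 under 100 CPM and 0.052 above. Of 95 other genes at 100 CPM or more with a representative transcript under 1000 bases, 24.2% were lower and 28.4% higher, with a median of -0.04.

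A few members sat near no change. Rpl10, a late-joining protein of the 60S subunit near the transfer RNA sites, was at 62.5, 53.2 and 65.7 CPM (MODP) and 65.9, 58.6 and 56.3 CPM (MOP), a log2 fold change of -0.01 ± 0.096 (edgeR adjusted p = 0.98), and its sign turned when one or another library was left out. Rpl9 was at 26.8, 20 and 24.2 CPM against 23.6, 26 and 22 CPM (0.01 ± 0.12, edgeR adjusted p = 0.96). Rps27, at 1.5 to 2.35 CPM in all 6 libraries, had the highest estimate, 0.13 ± 0.28 (edgeR adjusted p = 0.77). In all 3 the groups overlapped, and 92.3%, 93.5% and 98.7% of their 31-base stretches occur in transcripts of other genes. The part of reads with several matches in these values was not tested.

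Relative to their own pool, no member was called in either direction. When each library was scaled by its summed member counts instead of its total, none of the 75 members was called by edgeR and none had an unadjusted p under 0.05, while 41.6% of all tested genes were called on that scale. The smallest unadjusted p was 0.076, for Rps27a (adjusted p = 0.14). The pool-relative log2 fold changes ran from -0.16 to 0.34 with an SD of 0.087 over the members, and 62 of 75 lay within 0.1 of 0. Among the abundant members, the SD of the log2 fold changes of the main fit was 0.051, and the median SE of a single member was 0.052. An SE can hold library scatter that the members share, so this likeness does not show that they changed equally. Between any pair of libraries the members' log2 CPM correlated closely over the 75 genes, which share library, depth and counting, with a lowest Pearson r of 0.9965. A p above the threshold does not show that no member departs from the pool.

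Counted levels differed far more between members than between the populations, although the proteins are needed in equal numbers. Per kb of the representative transcript, which need not be the form these cells express, the tested members spanned 479-fold. Rpl32 (1964 CPM per kb), Rpl4 (1853), Rps9 (1830) and Rpl8 (1592) were the highest. The lowest tested were Rps23 (4.1 CPM per kb), Rps27 (5.21), Rpl5 (5.46) and Rpl21 (6.38), all of them obligate ribosome components. Rps23, a decoding-centre protein, was at 3.78, 5.17 and 4 CPM (MODP) and 3.23, 3.39 and 3.48 CPM (MOP), and Rpl21 at 12.1, 12.4 and 14 CPM against 10.7, 10.4 and 11.4 CPM. Neither passed the test, with edgeR adjusted p-values of 0.24 and 0.15 and log2 fold changes of -0.35 ± 0.21 and -0.25 ± 0.12. The groups were separate for both.

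These levels went down with the share of sequence that occurs elsewhere, though loosely. For 50 of the 80 members at least 50% of the 31-base stretches of the representative transcript occur in transcripts of other genes, pseudogenes included. Over the 75 tested members, log2 CPM per kb correlated with that share at Spearman's rho of -0.28 and, for 50-base stretches, at -0.39. The 27 members with 75% or more shared had a median of 83.7 CPM per kb, against 224 for the 21 between 50% and 75% and 244 for the 27 under 50%. The median log2 fold changes were -0.22, -0.23 and -0.24 in the same order, and over the members the log2 fold change correlated with the share at Pearson's r of 0.26 and Spearman's rho of 0.16. Among members with under 50% shared, 23 of 27 were lower, and among the others 28 of 48. How the counting treated reads with several matches is not stated in the labels or processing notes. The 142 rows annotated as pseudogenes of ribosomal proteins together held 0.01% of counts in MODP and 0.0087% in MOP. Of these, 18 were tested and 0 were called by edgeR, with 1 at an unadjusted p under 0.05.

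**Figure D4:**
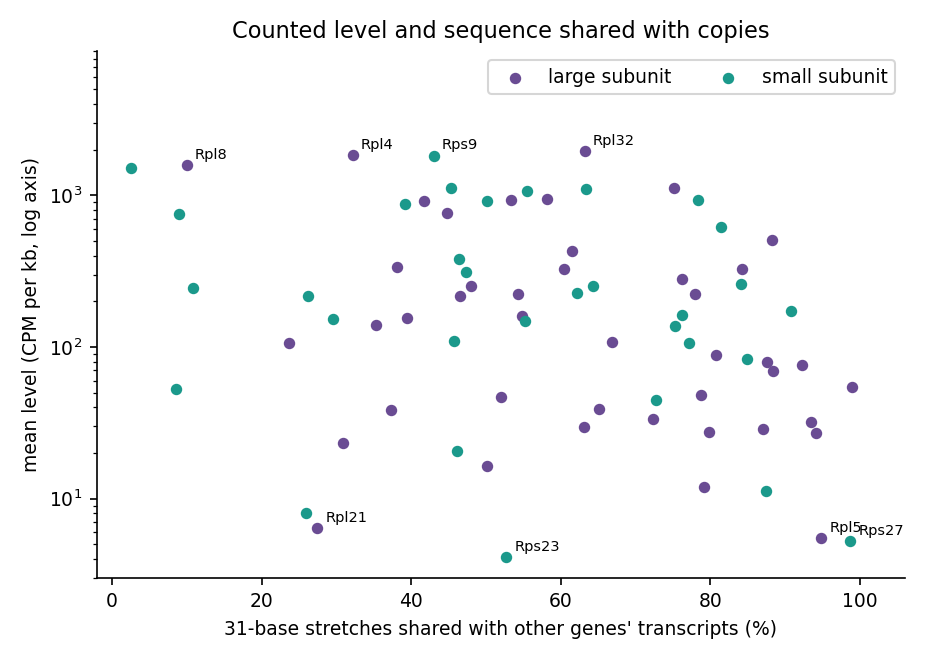
Mean level of each tested member over the 6 libraries in CPM per kb of its representative transcript (y axis, log scale) against the percentage of its 31-base stretches found in transcripts of other genes (x axis). The members with the highest and the lowest levels are named; levels span 479-fold, and low levels occur at any degree of sharing.

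Some paralogue variants of ribosomal proteins, known from testis or muscle, were near the floor. Rpl10l, Rpl39l and Rpl3l did not pass the filter. Neither did Rpl6l, annotated as a processed pseudogene, nor the parental gene Rpl23a. All of them reached at most 0.985 CPM in any library. For Rpl23a, 89.8% of the 31-base stretches occur in transcripts of other genes, and the part of reads with several matches in its low count was not tested. Rps27l, a variant known as a p53 target, was at 75.6, 83.9 and 86.6 CPM (MODP) and 64.6, 70.3 and 76.3 CPM (MOP), with groups that overlap by a narrow margin (log2 fold change -0.22 ± 0.081, edgeR adjusted p = 0.071; 0.0098 with the replicate block). Its counted level stood far above that of its partner Rps27 (0.13 ± 0.28, above) in both populations, at 153 against 5.21 CPM per kb. However, 98.7% of the 31-base stretches of Rps27 occur in transcripts of other genes, against 29.6% for Rps27l. These counted levels may therefore not be comparable, and the part of reads with several matches was not tested. Rps4l, beside Rps4x, was at 7.96 ± 1.18 CPM and 7.19 ± 1.03 CPM (SD, n = 3; edgeR adjusted p = 0.59).

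Of the 10 tested genes outside the symbol rule, 3 were lower (30%, against 14.9% of all tested genes). Rps3a1, a 40S platform protein, went from 325 ± 4.32 to 266 ± 6.49 CPM (SD, n = 3; log2 fold change -0.29 ± 0.048, edgeR adjusted p = 0.0032). Rack1 went from 1818 ± 60 to 1547 ± 29.6 CPM (-0.23 ± 0.049, edgeR adjusted p = 0.0086; 0.052 without MODP replicate 1). Rpl22l1, the variant that can replace Rpl22, went from 60.3 ± 1.06 to 47.9 ± 0.713 CPM (-0.33 ± 0.058, edgeR adjusted p = 0.0039), so both genes of this pair fell, and all 3 had separate groups. Rpl36al, with 121 ± 0.811 against 110 ± 2.36 CPM, was at an edgeR adjusted p of 0.051 (0.037 with the block), while its partner Rpl36a fell from 273 ± 10.4 to 221 ± 14.5 CPM (-0.3 ± 0.063, edgeR adjusted p = 0.0081). Rpl7l1 was at 123 against 109 CPM (adjusted p = 0.087 by edgeR and 0.028 with the block), and its partner Rpl7 fell from 533 ± 9.92 to 473 ± 3.02 CPM (edgeR adjusted p = 0.025). Partners of the untested variants, Rpl3 (-0.21 ± 0.067, edgeR adjusted p = 0.042) and Rpl39 (-0.21 ± 0.059, edgeR adjusted p = 0.027), were lower as well. Fau averaged 8.31 CPM (MODP) against 8.47 CPM (MOP), with an edgeR adjusted p of 0.92. Also on this list, Rps27rt, Rpl10-ps3 and Rpl9-ps6 averaged between 1.18 and 2.26 CPM, with edgeR adjusted p-values of 0.68, 0.7 and 0.95.

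Members with and without a pyrimidine run exactly at the annotated start had like fold changes. The 13 tested members with it had a median log2 fold change of -0.226 with 10 called lower. The 42 without it had a median of -0.215 with 27 called lower. Within 20 bases, 47 held a run (median -0.218, 32 called lower) and 8 did not (-0.241, 5 called lower). Many of the 42 thus held a run nearby. The split at the exact start therefore depends on where starts are annotated, and it cannot compare members with and without TOP mRNAs. The windows printed above all hold the run at the annotated start. Of their members, Rpl15 (-0.31), Rpl14 (-0.28), Rps6, Rplp2, Rpl35 (-0.22) and Rps10 (-0.21) fell. Rps18 (-0.2, edgeR adjusted p = 0.08) passed only with the replicate block (0.037), and Rps27 did not pass with or without it. Of the 2 printed genes outside the rule, Rack1 fell and Fau did not pass.

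Other genes with TOP mRNAs, translation factors among them, were more often lower than higher. Of 30 tested, 14 were lower (46.7%, against 14.9% of all tested genes) and 1 higher (3.33%, against 16.3%). Their median log2 fold change was -0.15. Npm1, a nucleolar chaperone of ribosome assembly, went from 739 to 525 CPM (-0.49, edgeR adjusted p = 0.0013). Eef1g and Eef1b2, subunits of the factor that recharges the elongation factor eEF1A, changed by -0.46 and -0.28 (edgeR adjusted p = 0.00096 and 0.0069), and Pabpc1, which binds poly(A) tails, by -0.3 (edgeR adjusted p = 0.0057). Vim, an intermediate filament gene counted among TOP mRNAs, was the exception, at 1041 CPM (MODP) and 2139 CPM (MOP) (1.04, edgeR adjusted p = 0.00052). Eef1a1 and Eef2, the most abundant of the list, were not called (edgeR adjusted p = 0.079 and 0.39). Among TOP-class hosts of small nucleolar RNAs, 3 of 6 tested were lower (50%, against 14.9% of all tested genes). These were Ncl (-0.46), Gas5 (-0.39) and Zfas1 (-0.47), with edgeR adjusted p-values of 0.0033, 0.0099 and 0.0039.

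**Figure D5:**
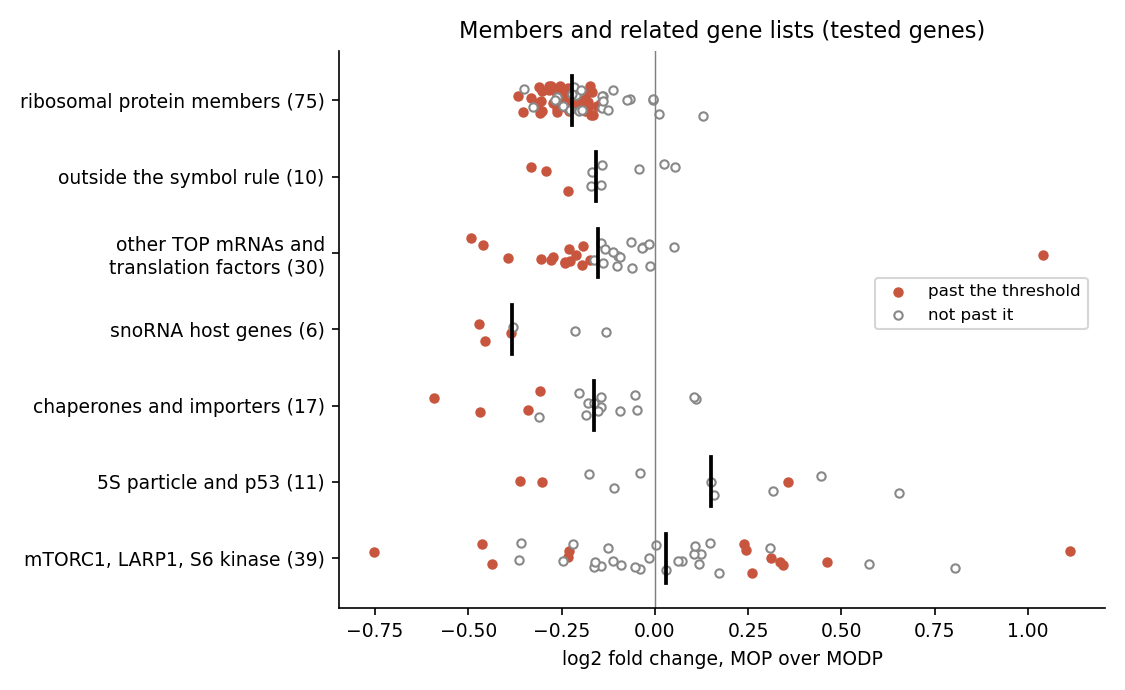
Log2 fold change, MOP over MODP (x axis), of the tested genes of the members and 6 related lists, with the number tested in brackets; filled points passed the adjusted p of 0.05 and vertical bars are medians. The members lie closest together, with a median of -0.221, and the snoRNA hosts have the lowest median, -0.383.

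Genes of the mTORC1, Larp1 and S6 kinase pathway were called about as often as tested genes in general. Of 39 tested, 5 were lower (12.8%, against 14.9% of all tested genes) and 8 higher (20.5%, against 16.3%), with a median log2 fold change of 0.03. Mtor, Larp1 and Rps6kb1 were not called (edgeR adjusted p = 0.089, 0.44 and 0.42). The lower ones included Pdcd4, an inhibitor of the helicase eIF4A (-0.75, edgeR adjusted p = 0.00064), Eef2k, the kinase that slows elongation (-0.46, edgeR adjusted p = 0.00057), Akt1s1, an mTORC1 inhibitor (-0.44, edgeR adjusted p = 0.013), and Sesn1 (-0.23, edgeR adjusted p = 0.026). The higher ones included Lamtor1 (0.34) and Rragc (0.24), parts of the lysosomal platform of mTORC1, Rps6ka3 (0.31), and Ddit4, which restrains mTORC1. Ddit4 averaged 23.4 CPM (MODP) and 50.3 CPM (MOP) (1.11, edgeR adjusted p = 0.012), and the call was lost with the replicate block (adjusted p = 0.079).

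Of 17 tested chaperones and importers that bring ribosomal proteins to the ribosome, 4 were lower (23.5%, against 14.9% of all tested genes) and 0 higher by edgeR's test, with a median log2 fold change of -0.16. These were Grwd1, the chaperone of Rpl3 (-0.59, edgeR adjusted p = 0.0043), Tsr2, that of Rps26 (-0.47, edgeR adjusted p = 0.01), Aamp (-0.34, edgeR adjusted p = 0.0027), and Heatr3, which carries Rpl5 (-0.31, edgeR adjusted p = 0.036). The clients had log2 fold changes of -0.21 (Rpl3), -0.18 (Rps26) and, without passing the test, -0.26 (Rpl5); the differences from their chaperones were not tested. On the list of 5S particle assembly and p53 targets, Rpf2 and Rrs1, which load the particle, were lower (-0.3 and -0.36, edgeR adjusted p = 0.01 and 0.016) and Bax was higher (0.36, edgeR adjusted p = 0.0028), of 11 tested. These shares, 18.2% lower and 9.09% higher, are near those of all tested genes. Trp53 itself was not called (edgeR adjusted p = 0.057). Proteins of the mitochondrial ribosome are a separate class with symbols Mrpl and Mrps. By edgeR's test 21 of their 76 tested genes were lower (27.6%, against 14.9% of all tested genes). None was higher, against 16.3% of all tested genes, and their median log2 fold change was -0.16.

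Other quantities moved along with the members. Transcripts of the mitochondrial genome made up 3.18% to 3.61% of counts in MODP and 2.57% to 2.79% in MOP. Summed progenitor markers were at 1026 to 1187 CPM (MODP) and 793 to 875 CPM (MOP), with 4 of 5 lower (among them Cd27 and Kit) and Csf1r higher. Summed basophil and mast cell markers were at 377 to 977 CPM (MODP) and 3243 to 5179 CPM (MOP), with 8 of 8 higher. Summed T and NK cell markers were at 218 to 274 CPM and 66.2 to 104 CPM, with 6 of 8 lower. Nkg7 made up most of that sum, at 203 to 239 CPM in MODP, while Cd3e, Cd3d and Trac were at 5.26 CPM or less in every library. Neutrophil markers (2204 to 17016 and 2931 to 12037 CPM, 0 of 10 called by edgeR), B cell markers (42.7 to 135 and 38.8 to 79.9 CPM, 0 of 7 called) and stromal and endothelial markers (191 to 3235 and 183 to 542 CPM, 1 of 6 tested lower) varied within the groups. Erythroid markers were at 158 to 607 and 393 to 708 CPM (2 of 8 higher), and plasmacytoid dendritic markers at 71.6 to 97.4 and 66.3 to 80.9 CPM (2 of 4 lower). No listed marker was at 0 in all libraries. The part of these cell types and of the mitochondrial share in the lower ribosomal protein level was not tested.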

How the data were processed

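Raw read counts per Ensembl gene were deposited by the authors as 1 table of whole numbers without normalization. TopHat 1.4 and HTSeq are listed as tools, per the submitters' processing notes; their roles, the genome build, the strand setting and the treatment of reads with several matches are not stated there or in the labels. Groups follow the cell type label, and symbols come from GENCODE M21 by gene identifier (20840 of 22271 matched).

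CPM values were computed here with TMM-scaled library sizes (factors 0.983 to 1.03). Genes kept by filterByExpr (12850) were tested with edgeR 4.0.16 in R 4.3.3 (quasi-likelihood, robust, group as the only factor, Benjamini-Hochberg adjustment, threshold 0.05). Alternatives were other scalings and filters, DESeq2 1.42.0, leaving out libraries and replicate blocks. Representative transcripts (protein-coding, APPRIS principal first) gave lengths and 31-base stretches shared with other genes' transcripts, with 50% or more marked uncertain.

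On simulated counts for these 12850 genes the MOP against MODP test recovered 2% of 50 genes changed 1.2-fold, 47.9% of 48 changed 1.5-fold and 85.7% of 49 changed 2-fold, and 10 of its 126 calls were false. The changed genes were picked at random and were far fewer than the 31.2% called in the data, which makes the adjustment stricter. These rates therefore do not describe the test as used on the members. Column names number the libraries 1, 2 and 3 in each group, while titles number them WT1, WT2 and WT1. Over 9350 genes, deviations from the group means correlated at 0.59, 0.61 and 0.51 for the same column number and at -0.45 to 0.05 for others, so the column numbers were taken as pairs. Counts of libraries within a group differed at 7.35 to 34.7 times the chi-square expectation per degree of freedom, more than repeat sequencing of 1 library would give; whether libraries share an animal or RNA is not stated in the sources used here.

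The members and gene lists were chosen with earlier results of these data known. Named genes are Rplp0, Rplp1, Rplp2, Rpsa, Rps6, Rps19, Rpl5 and Rpl11, the 10 members with the smallest adjusted p, the 4 highest and 4 lowest tested members per kb, tested paralogue variants with partners, tested genes outside the symbol rule, and up to 4 called genes per direction of each other list. Any further gene was picked with its values in view. A few genes that this rule covers are not reported here. Promoter windows are RefSeq's.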

Additional observations from a re-analysis of the deposited data

How the results depend on the processing

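Under 16 alternatives the members were lower in MOP in 15 to 58 cases and higher in 0. All 51 called members had a negative log2 fold change under all 16, as did 70 of the 75 tested. The alternatives refit the same libraries or a part of them, and the 51 were picked as lower in these. Their sign was thus largely set beforehand and is no separate evidence. The count of members lower was 15 to 48 when each library was left out in turn, lowest without MOP replicate 1 (15), MOP replicate 2 (18), MODP replicate 1 (23) and MOP replicate 3 (31); calls over all genes fell with it, to 1281 higher and 1036 lower without MOP replicate 1 and to 1465 higher and 1264 lower without MODP replicate 1, from 2095 and 1913. It was 36 without a filter on low counts, where 22271 genes enter the adjustment and 8.33% were lower. With DESeq2 it was 41, where 12.6% of all tested genes were lower. The replicate block by column number gave 56, with the 51 and 5 more, and the block by title number 53, so the block moved no count of members by over 1.5 times; the 5 are Rplp0, Rps16, Rps18, Rps7 and Rps27l, and of the genes named by rule it also changed the calls of Rpl36al, Rpl7l1 and Ddit4. The median log2 fold change of members was -0.275 with upper-quartile scaling and -0.262 with library totals only, and -0.234 to -0.212 when each library was left out. Upper-quartile scaling put all calls at 1692 higher and 2452 lower (40.8% higher, against 52.3%), while the members' median stayed 0.213 below that of all genes. Adding the ribosomal proteins outside the symbol rule raised the mean share of counts to 2.89% in MODP and 2.42% in MOP. Relative to the pool, 0 members were called when any library was left out or the block was used; this comparison, and a call that also asks for separate groups (51 lower), were added after seeing the data. Leaving out libraries also ended the calls of Rpl3, Rpl39, Rpl7, Heatr3, Sesn1, Rrs1, Akt1s1 and Rragc, with adjusted p up to 0.15, 0.11, 0.1, 0.11, 0.099, 0.071, 0.056 and 0.055 by edgeR. Under at least 1 alternative, DESeq2 included, the calls of Rpl26, Rpl35, Rps10, Rpl15, Rpl14 and Rpl31 were also lost, with adjusted p up to 0.17, 0.16, 0.087, 0.069, 0.056 and 0.053. Signs turned for some genes that were not called in the main comparison. Fau went to -0.031 with upper-quartile scaling and -0.019 with library totals, and from -0.058 to 0.09 when each library was left out. Rpl10 went to 0 with the title block and from -0.09 to 0.057 over left-out libraries, Rpl9-ps6 from -0.428 to 0.199 (0.374 without both replicates 2) and Rps27 from -0.06 to 0.287. The cause was not tested. The scarce members have larger SEs; the part of depth in their calls was not tested.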

Other observations

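Among rows left out of the member list, the pseudogene Rpl22-ps1 was counted at 131, 85 and 128 counts in MODP replicates 1, 2 and 3 and at 153, 20 and 183 counts in MOP replicates 1, 2 and 3. MOP replicate 2, the deepest library, thus had the lowest value, 1.28 CPM against 7.98 to 13.9 CPM in the other 5 libraries, while Rpl22 in that library (332 CPM) lay between those of the other MOP libraries. The row was not called between the groups (edgeR adjusted p = 0.95). It was singled out after its values were seen.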
